A study of Mus musculus with 19 samples.

Results

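The measurement described here is how far the effect of a genotype label on RNA levels changed between 2 stages of muscle differentiation. For every gene, the log2 ratio of Glud1-deficient to wild-type (WT) libraries was taken in proliferating myoblasts and in differentiated myotubes, and the first was subtracted from the second. The contrast uses 11 of the 19 libraries of the study, chosen by their labels: 3 WT_myoblasts, 3 Glud1KO_myoblasts, 3 WT_diffMyotubes and 2 Glud1KO_diffMyotubes. All were grown from primary myoblasts of mouse hind-limb muscle. Myoblasts were in growth medium for 24 h, and differentiated myotubes were sampled at 48 h, when the differentiation step ended. The remaining 8 libraries, 4 for each genotype label, are fused myotubes at 72 h, which share the estimate of spread in the fit and give values outside the contrast. Strain, age and sex of the mice, the allele that removes Glud1, and whether replicates are separate animals or separate cultures are not given in the sources used here, so p-values measure the spread between these libraries, which may be technical.

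Glud1 encodes mitochondrial glutamate dehydrogenase, which interconverts glutamate and alpha-ketoglutarate. Satellite cells are the stem cells of skeletal muscle, and myoblasts are their proliferating progeny. When growth factors are withdrawn, myoblasts leave the cell cycle, the transcription factor myogenin comes on under the control of MyoD, MEF2 factors join it, and genes of the sarcomere and of calcium handling are switched on. Cyclins, mitotic genes, Id proteins, Notch targets and much of the myoblast's matrix and migration machinery are switched off over the same period. A gene whose genotype effect changes between the stages moves a different distance under each label, from equal or from unequal levels in myoblasts.

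Libraries of the contrast held 19875856 to 30742634 estimated counts. On a principal component plot of these 11 libraries the first component carried 92.3% of the variance and separated the stages, with WT myotubes at 110 to 117 and KO-labelled myotubes at 138 and 139, farther from the myoblasts. The Glud1 RNA did not separate the labels. Its level, in counts scaled to a common depth after TMM normalization (CPM), was 192, 191 and 184 CPM in WT myoblasts and 190, 185 and 186 CPM in KO-labelled myoblasts. At the later stage it was 112, 102 and 104 CPM in WT and 103 and 96.6 CPM in KO-labelled 48 h myotubes, and its genotype effect was not called at either stage (Benjamini-Hochberg adjusted p = 0.849 and 0.193, from edgeR's quasi-likelihood test). The deposited file names mark both genotype groups as KO and add a T for the Glud1-deficient ones, so the groups are called WT and KO-labelled here, and every direction below follows the labels. The cultures held RNA of myoblast markers throughout (Pax7, Myf5, Myod1 and Des among 8 listed, none under 1 CPM in a group mean), and markers of other cells differed by list. Of those, 9 of 10 endothelial and 11 of 12 immune markers were under 1 CPM in each of the 4 groups, with Emcn, C1qa, C1qb, Cd52 and Tyrobp at 0 in all 11 libraries. In WT myoblasts 5 of 8 Schwann cell markers and 4 of 9 smooth muscle and pericyte markers were under 1 CPM, and the latter list included Rgs5 at 36.6 to 40.8 CPM, Notch3 at 15.2 to 18.2 CPM and Des, which muscle cells also express. Both lists had lower sums in KO-labelled myoblasts. The Schwann sum was 26.0 to 27.8 CPM in WT and 19.4 to 22.45 CPM in KO-labelled myoblasts. The smooth muscle and pericyte sum, mostly Des, was 759 to 844.5 and 631 to 670.5 CPM. In myotubes the labels overlapped for both sums. The summed level of the immune list was 1.57 to 2.17 CPM in myoblasts, 15.8 to 18.8 CPM in WT and 24.6 to 28.2 CPM in KO-labelled myotubes, nearly all of the latter from Itgam.

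Of 15123 genes tested, 2890 (19.1%) had a genotype effect that differed between the stages at an adjusted p under 0.05 (edgeR quasi-likelihood test, Benjamini-Hochberg). The change was positive, meaning a higher KO-labelled to WT ratio in myotubes than in myoblasts, for 1176 genes (7.78%) and negative for 1714 (11.3%). Most changes were modest: the median size among called genes was 0.42 on the log2 scale, against a median standard error of 0.13 over all genes, and 448 genes changed by at least 2-fold, 348 of them negatively. The genotype effect itself was called for 1747 genes (11.6%) in myoblasts and for 3810 (25.2%) in myotubes. The myoblast count was 925 without WT myoblast replicate 3, 1144 without KO-labelled myoblast replicate 1 and 1067 without KO-labelled myoblast replicate 3. The share of positive changes depends on how libraries are scaled: it was 40.7% here, 50.8% with DESeq2 size factors, 26.3% with library size alone and 57.1% once a trend with gene length and GC content was removed. When the effective transcript lengths of each library entered the fit as an offset, 1452 genes were called, of which 1352 were among the 2890.

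The called genes fell into a few patterns. Among the negative changes, 1133 of 1714 genes (66.1%) did not pass the test in myoblasts and were lower in KO-labelled myotubes. A further 162 were higher in KO-labelled myoblasts and lower in KO-labelled myotubes, 156 were called only as higher in myoblasts, and 94 were lower at both stages. Among the positive changes, 603 of 1176 genes (51.3%) did not pass in myoblasts and were higher in KO-labelled myotubes. In 258 (21.9%) the label lowered the gene in myoblasts and the myotube effect was not called, and 170 crossed from lower to higher. The 2 effects of 288 genes were each below the threshold although their difference passed it.

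**Figure D1:**
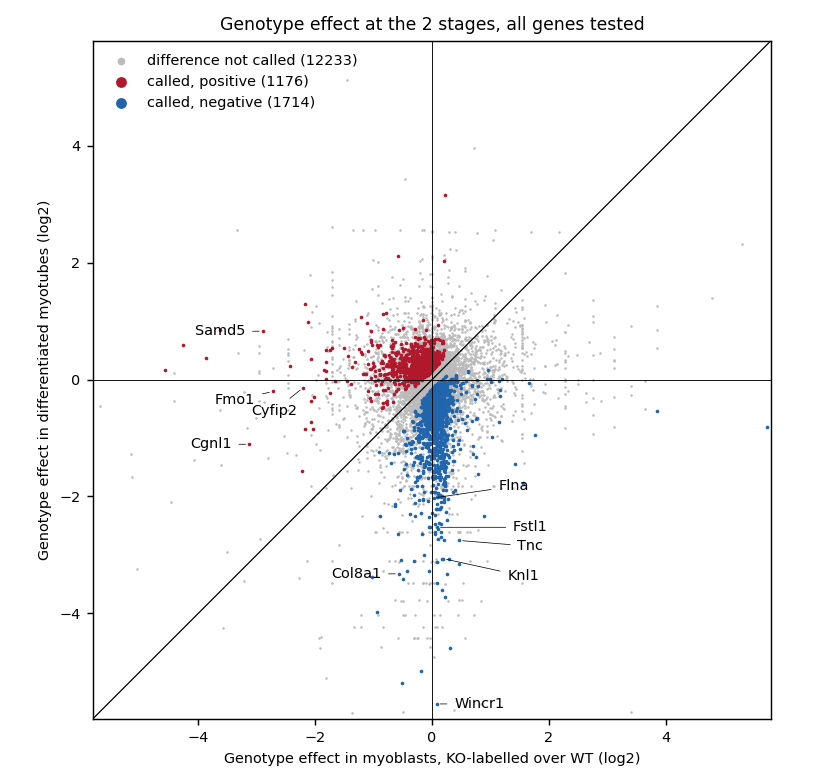
Genotype effect of each gene tested in myoblasts (x axis, log2 KO-labelled over WT) against the same in differentiated myotubes (y axis, log2), with called positive changes in red (1176), called negative changes in blue (1714) and a line where both effects are equal. Blue points hang below the centre of the plot, at myoblast effects near 0, and a sparse group of red points lies to the left, near 0 in myotubes. 21 genes lie outside the axes.

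The negative changes with the smallest adjusted p included a cytoskeletal gene and genes of secreted proteins. Flna encodes filamin A, which cross-links actin and ties it to integrins, and lies at chrX:74223461-74249820 on the minus strand (GRCm38). Its level was 2076, 2202 and 2246 CPM in WT myoblasts and 2256, 2224 and 2192 CPM in KO-labelled myoblasts, then 391, 354 and 401 CPM in WT and 89.3 and 98.4 CPM in KO-labelled 48 h myotubes. The myoblast groups overlapped, the myotube groups were far apart, and the genotype effect changed by -2.06 ± 0.088 (SE) in log2 (adjusted p = 1.24e-14, edgeR quasi-likelihood). Fstl1, a secreted follistatin-like glycoprotein, stood at 249, 256 and 249 CPM in WT myoblasts and 267, 259 and 272 CPM in KO-labelled myoblasts. It then dropped to 29, 22.7 and 27.5 CPM in WT and 4.6 and 4.56 CPM in KO-labelled 48 h myotubes, so that both KO-labelled libraries lay below every WT library (change -2.61 ± 0.12, adjusted p = 2.94e-14, edgeR). Thbs1 encodes thrombospondin 1, a matrix protein that modulates adhesion and TGF-beta. Its level was 969, 1034 and 1010 CPM in WT myoblasts and 1125, 1042 and 1089 CPM in KO-labelled myoblasts, then 230.3, 225 and 262 CPM in WT and 79.1 and 86.6 CPM in KO-labelled 48 h myotubes (change -1.64 ± 0.08, adjusted p = 7.97e-14, edgeR). Iqsec3, an exchange factor for ARF GTPases, was level in myoblasts (243, 249 and 262 CPM in WT, 245, 249 and 256 CPM in KO-labelled) and split in myotubes into 116, 118 and 117 CPM in WT and 48.6 and 49.8 CPM in KO-labelled libraries. Its change was -1.24 ± 0.059, at an adjusted p of 5.9e-14 in edgeR. The effect of the label on these 4 genes did not pass the test in myoblasts, and their fall from 24 h to 48 h was steeper in the KO-labelled libraries. The RefSeq promoter window of Flna (250 bases before to 50 after a transcription start, GRCm38.p6, chrX:74246485-74246784, minus strand) is printed as the leading gene of the negative direction, with capitals marking its MCAT motif (GGAATG, read on the other strand), a motif found in 12.3% of the 11127 windows matched to genes tested.
Flna: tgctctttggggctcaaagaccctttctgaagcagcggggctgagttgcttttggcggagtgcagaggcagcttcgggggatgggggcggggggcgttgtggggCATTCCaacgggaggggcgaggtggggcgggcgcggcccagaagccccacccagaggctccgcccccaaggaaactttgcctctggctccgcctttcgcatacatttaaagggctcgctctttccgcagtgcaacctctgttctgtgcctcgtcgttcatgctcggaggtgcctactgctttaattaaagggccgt

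Mitotic genes were lower in KO-labelled myotubes and not in myoblasts, and of the 16 lists theirs had the largest share of called members. Of 40 genes of the mitosis list, 32 changed negatively, none positively and 8 were not called, against 11.3% negative among all genes, and the list's median change was -1.61 against -0.03 for all genes. In myoblasts 18 of the 40 were higher in KO-labelled libraries (4.86% of all genes were) and none lower, with a median effect of 0.14. In myotubes 32 were lower (14.1% of all genes) and none higher, with a median of -1.44. From 24 h to 48 h the median mitotic gene fell by 5.36 on the log2 scale in WT and by 6.97 in KO-labelled libraries. With effective lengths in the fit the negative count was 26.

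Top2a encodes the topoisomerase that untangles chromosomes before they separate. It stood at 394, 404 and 381 CPM in WT myoblasts and 431, 421 and 424 CPM in KO-labelled myoblasts, where the KO-labelled libraries were slightly the higher ones but the effect was not called. It was 7.64, 6.09 and 8.66 CPM in WT and 1.6 and 1.15 CPM in KO-labelled 48 h myotubes, a change of -2.56 ± 0.2 (adjusted p = 4.56e-10, edgeR). Mki67 encodes the Ki-67 protein that coats mitotic chromosomes and marks cycling cells. Its level was 182, 216 and 199 CPM in WT myoblasts and 218, 213 and 214 CPM in KO-labelled myoblasts, then 4.79, 4.09 and 5.07 CPM in WT and 0.588 and 0.996 CPM in KO-labelled 48 h myotubes (change -2.66 ± 0.27, adjusted p = 4.77e-08, edgeR). Cenpe, a kinesin of the kinetochore, fell from overlapping myoblast levels to 2.04, 1.7 and 1.73 CPM in WT and 0.214 and 0.367 CPM in KO-labelled 48 h myotubes (change -2.67 ± 0.39, adjusted p = 1.43e-05, edgeR). Knl1, the kinetochore scaffold, had the largest change of the list, -3.25 ± 0.5, with only 0.16 and 0.0524 CPM left in the KO-labelled myotubes against 1.28, 0.61 and 0.915 CPM in WT. All these genes had declined far by 48 h under both labels, so the differences concern the residual levels of nearly silent genes.

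Many mitotic promoters carry a CHR element, through which the DREAM and MMB complexes act, spaced from a CCAAT box bound by NF-Y. In the RefSeq windows, TTTGAA on either strand was present in 24 of 33 matched mitosis promoters (72.7%) and in 11.97% of all 11127. CCAAT on either strand was present in 24 of 33 (72.7%) and in 38.5% of all. Both were in 20 of 33 (60.6%) and in 4.97% of all. The Mki67 window (GRCm38.p6, chr7:135716330-135716629, minus strand), chosen after values were seen as the called mitosis gene with both motifs and the largest change, shows 3 CCAAT boxes and 2 CHR elements in capitals.
Mki67: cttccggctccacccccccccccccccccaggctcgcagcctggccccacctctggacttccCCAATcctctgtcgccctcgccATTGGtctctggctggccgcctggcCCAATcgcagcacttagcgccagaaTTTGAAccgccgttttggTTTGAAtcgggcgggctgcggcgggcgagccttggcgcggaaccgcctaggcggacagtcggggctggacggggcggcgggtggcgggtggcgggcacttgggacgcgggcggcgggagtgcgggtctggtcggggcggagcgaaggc

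Of 40 listed DNA replication genes, 13 changed negatively, none positively and 27 were not called, against 11.3% negative among all genes, with a median change of -0.39. In myoblasts 14 were higher in KO-labelled libraries (4.86% of all genes were), and in myotubes 11 were lower and 2 higher, against 14.1% and 11% of all genes. Mcm6, a subunit of the replicative helicase, was 169, 165 and 161 CPM in WT myoblasts and 179, 175 and 173 CPM in KO-labelled myoblasts. In myotubes it was 3.84, 3.22 and 3.66 CPM in WT and 1.87 and 1.73 CPM in KO-labelled 48 h myotubes (change -1.08 ± 0.17, adjusted p = 3.87e-05, edgeR). Lig1, which joins Okazaki fragments, changed by -1.37 ± 0.26 and Rfc5, a subunit of the clamp loader, by -1.27 ± 0.24 (adjusted p = 0.000352 and 0.000304, edgeR). The negative count was 6 with effective lengths in the fit, 20 with library-size scaling and 8 without KO-labelled myotube replicate 1, where 7 were lower in myotubes, and 5 were lower in myotubes with effective lengths.

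The D-type cyclins, which couple growth signals to the G1 kinases, did not move together. Ccnd1 was equal in myoblasts at 1161, 1191 and 1193 CPM in WT myoblasts and 1168, 1191 and 1143 CPM in KO-labelled myoblasts. In myotubes it was 48.6, 39.4 and 42.3 CPM in WT and 10.5 and 12.5 CPM in KO-labelled 48 h myotubes, a change of -1.90 ± 0.11 (adjusted p = 3.3e-12, edgeR), with no overlap between the labels. In the fused libraries the effect had the other sign (0.42, adjusted p = 0.0028, edgeR). Ccnd2 changed by -0.51 ± 0.063, a call lost with effective lengths in the fit. Ccnd3, the cyclin that stays on in differentiating muscle, changed by 0.29 ± 0.066 in the positive direction (adjusted p = 0.00236, edgeR), from 368, 352 and 397 CPM in WT myoblasts and 318, 322 and 316 CPM in KO-labelled myoblasts to 881, 846 and 894 CPM in WT and 875 and 953 CPM in KO-labelled 48 h myotubes, where the labels overlapped. On the list of p53 targets and cell cycle exit genes, 2 of 24 changed positively and 5 negatively, against 7.78% and 11.3% of all genes, and 6 and 6 did with the length and GC trend removed. With effective lengths in the fit 3 changed negatively. The positive member beside Ccnd3 was Cdkn1a (p21), the kinase inhibitor that holds myotubes out of the cycle, at 0.26 ± 0.066, and it was 0.20 and not called without KO-labelled myotube replicate 2. Trp53 itself changed by -0.44 ± 0.081 (adjusted p = 0.000295, edgeR).

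**Figure D2:**
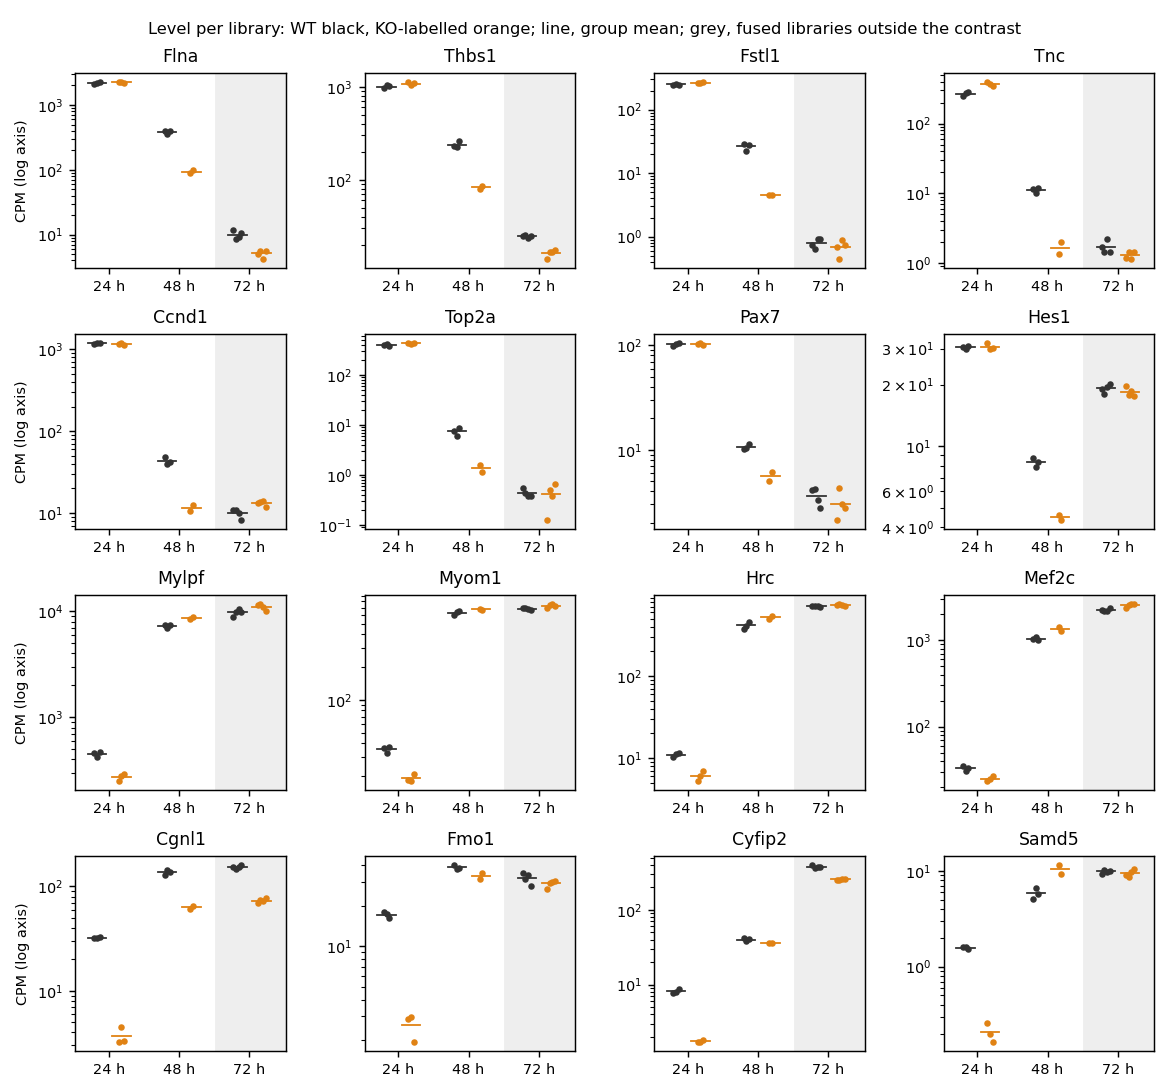
Level of 16 genes in every library (CPM after TMM scaling, log axis) at 24 h, 48 h and 72 h, WT in black and KO-labelled in orange, with a line at each group mean and the fused libraries, which are outside the contrast, on grey. In the top rows the labels are close at 24 h and part at 48 h, and in the lower rows they part at 24 h and are closer or crossed at 48 h.

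Genes of the extracellular matrix were mostly lower in KO-labelled myotubes, while in myoblasts some were higher and some lower. Of 36 listed, 32 were tested, 17 changed negatively and 1 (Loxl1) positively, against 11.3% and 7.78% of all genes, with a median change of -1.003 (-0.95 with genes at the count floor set to their bound). Loxl1 was 0.34 and not called without KO-labelled myotube replicate 2. In myoblasts the median effect was -0.05, with 3 members higher and 8 lower in KO-labelled libraries, against 4.86% and 6.69% of all genes, and 3 lower with effective lengths in the fit. In myotubes it was -1.18, with 22 lower and 1 higher, against 14.1% and 11% of all genes. Tnc encodes tenascin-C, a matrix protein of regenerating muscle (chr4:63959785-64047015, minus strand, GRCm38). It was 246, 271 and 288 CPM in WT myoblasts and 393, 367 and 348 CPM in KO-labelled myoblasts, so that every KO-labelled library was above every WT library. It was 11.6, 10.01 and 12 CPM in WT and 1.34 and 1.99 CPM in KO-labelled 48 h myotubes, the reverse order, and the change was -3.21 ± 0.19 (adjusted p = 2.78e-12, edgeR). Col8a1, a short-chain collagen, was already lower in myoblasts at 118, 117 and 124 CPM against 176, 181 and 175 CPM in WT. In myotubes it was 25.2, 18.8 and 24.5 CPM in WT and 2.62 and 1.94 CPM in KO-labelled 48 h myotubes (change -2.76 ± 0.16, adjusted p = 3.3e-12, edgeR), and it was also lower in the fused libraries. Fbn1, the microfibril protein fibrillin 1, overlapped in myoblasts and was 2.28, 1.92 and 3.06 CPM in WT and 0.481 and 0.524 CPM in KO-labelled 48 h myotubes (change -2.28 ± 0.29, adjusted p = 1.53e-06, edgeR). Fewer fibroblast-like cells and less RNA per cell cannot be told apart in bulk RNA, and the marker list of fibro-adipogenic cells was read beside these genes. Its summed level was 111 to 117 CPM in WT and 80.3 to 82.8 CPM in KO-labelled myoblasts, and 144 to 163 CPM in WT and 141 to 146 CPM in KO-labelled myotubes. Most of that sum was Gsn, whose genotype effect changed positively (0.38 ± 0.091, adjusted p = 0.00378, edgeR). Of the 5 tested markers of this list 4 had positive values, called or not, and the median change was 0.24. The called member beside Gsn was Ly6a, a surface marker also known as Sca-1. Ly6a was the only tested marker with a negative value, the direction of most called matrix genes. It was 6.01, 5.49 and 6.18 CPM in WT myoblasts and 3.18, 3.3 and 2.75 CPM in KO-labelled myoblasts, and had 36 counts in WT and 1 in KO-labelled 48 h myotubes, a ratio of 18.8 (95% counting interval 3.16 to 761.7). The Ly6a call was lost in 4 of 20 alternative fits, among them those without WT myotube replicate 1 and without KO-labelled myotube replicate 1 or 2 (fitted values -2.76, -2.18 and -5.61). Dpt was at 0 in all 11 libraries, and in myotubes 10 of its 11 markers were under 1 CPM in each label. The part of such cells in the matrix changes was not tested.

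The largest negative values belonged to genes nearly absent from KO-labelled myotubes, where fitted values depend on the prior count and the data give only ratios of counts. Wincr1, a long noncoding RNA, was 11.4, 11.3 and 10.9 CPM in WT myoblasts and 11.3, 12.2 and 12 CPM in KO-labelled myoblasts. In myotubes it had 18 counts over the 3 WT libraries and 0 over the 2 KO-labelled ones, at least 3.13-fold lower against a floor of 3 counts over the group. Cd300ld3, a member of a family of close paralogs, had 14 counts and 0, at least 2.43-fold lower, and its call was lost in 12 of 20 alternative fits. Ticrr, which helps to fire replication origins, had 30 counts and 1, a WT to KO-labelled ratio of 15.6 (95% counting interval 2.6 to 638). Nefl, the light neurofilament, had 51 counts and 2, a ratio of 13.3 (3.497 to 113). Krt13, a keratin, had 68 and 3, a ratio of 11.8 (3.88 to 58.7). Aunip and Esco2, which serve spindle assembly and sister chromatid cohesion, each had 19 counts and 1, a ratio of 9.91 (1.58 to 412). Their calls were lost without KO-labelled myotube replicate 1 and 2, respectively (fitted values -2.51 and -2.35). Both calls were also lost in the DESeq2 test (adjusted p = 0.0816 and 0.0954). All genes of this paragraph were above 5 CPM in myoblasts of both labels, and of the 2890 called genes 45 had a group at or under 3 counts.

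Most called sarcomere genes changed in the other direction. Of 46 listed, 45 were tested, 29 changed positively, 1 negatively and 15 were not called, against 7.78% positive among all genes, with a median change of 0.64. In myoblasts 30 were lower in KO-labelled libraries (6.69% of all genes) and 1 higher, with a median effect of -0.43. In myotubes 21 were higher (11% of all genes) and 3 lower, with a median of 0.18, and without KO-labelled myotube replicate 2 the count of higher genes was 10. The count of lower ones was 5 with library-size scaling and 5 with no filter on low counts. The rise from 24 h to 48 h was steep under each label, with a median of 4.56 in WT and 5.22 in KO-labelled libraries on the log2 scale. The positive count was 28 to 32 across the 20 alternative fits.

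Mylpf encodes the fast phosphorylatable myosin light chain. It was 457, 422 and 473 CPM in WT myoblasts and 251, 278 and 295 CPM in KO-labelled myoblasts, all KO-labelled libraries below all WT libraries. It was 7399, 7004 and 7479 CPM in WT and 8413 and 8818 CPM in KO-labelled 48 h myotubes, in the opposite order, for a change of 0.96 ± 0.099 (adjusted p = 7.18e-08, edgeR). Unc45b, the chaperone that folds myosin, was 9.95, 7.87 and 10.6 CPM in WT myoblasts and 5.47, 5.5 and 6.25 CPM in KO-labelled myoblasts and then 373, 391 and 412 CPM in WT and 468 and 509.9 CPM in KO-labelled 48 h myotubes (change 1.05 ± 0.11, adjusted p = 1.16e-07, edgeR). Myom1, the M-band protein myomesin (chr17:71002633-71126856, plus strand, GRCm38), was 36, 32.4 and 36.7 CPM in WT myoblasts and 18.2, 18 and 20.9 CPM in KO-labelled myoblasts and then 593, 642 and 652 CPM in WT and 683 and 670.1 CPM in KO-labelled 48 h myotubes. Its change of 0.99 ± 0.082 (adjusted p = 1.5e-09, edgeR) came mostly from myoblasts, since its myotube effect was 0.10 and not called. Myoz2, which links calcineurin to the Z-disc, was the reverse case, overlapping in myoblasts and at 72.5, 79.6 and 71.8 CPM in WT and 119.8 and 124 CPM in KO-labelled 48 h myotubes (change 0.92 ± 0.2, adjusted p = 0.00124, edgeR). The exception was Myh4, the fast IIb myosin heavy chain, which is close in sequence to its Myh neighbours and so uncertain. It was low at 1.62, 1.04 and 1.6 CPM in WT myoblasts and 3.81, 2.98 and 2.88 CPM in KO-labelled myoblasts, then 6.83, 6.36 and 7.5 CPM in WT and 5.99 and 6.24 CPM in KO-labelled 48 h myotubes, where the KO-labelled libraries lay just below WT, for a change of -1.34 ± 0.29 (adjusted p = 0.00134, edgeR).

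In the RefSeq windows of 34 matched sarcomere genes, an E-box (CANNTG, the site of MyoD and myogenin, either strand) was present in 85.3% and in 63.7% of all windows. The MCAT motif of TEAD factors was in 29.4% against 12.3%. The longer CArG box of serum response factor was in 14.7% against 1.29%, and the MEF2 site in 17.6% against 1.98%. These shares describe the windows and were not tested. The window of Myom1 (GRCm38.p6, chr17:71019307-71019606, plus strand), chosen after values were seen as the sarcomere gene with an E-box and a CArG box and the largest positive change, has 3 E-boxes and 1 CArG box in capitals.
Myom1: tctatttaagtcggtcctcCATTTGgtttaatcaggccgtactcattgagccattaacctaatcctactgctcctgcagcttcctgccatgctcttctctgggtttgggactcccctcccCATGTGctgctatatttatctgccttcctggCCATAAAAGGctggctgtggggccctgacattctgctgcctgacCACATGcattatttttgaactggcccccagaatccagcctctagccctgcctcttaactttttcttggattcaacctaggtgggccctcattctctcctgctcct

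**Figure D3:**
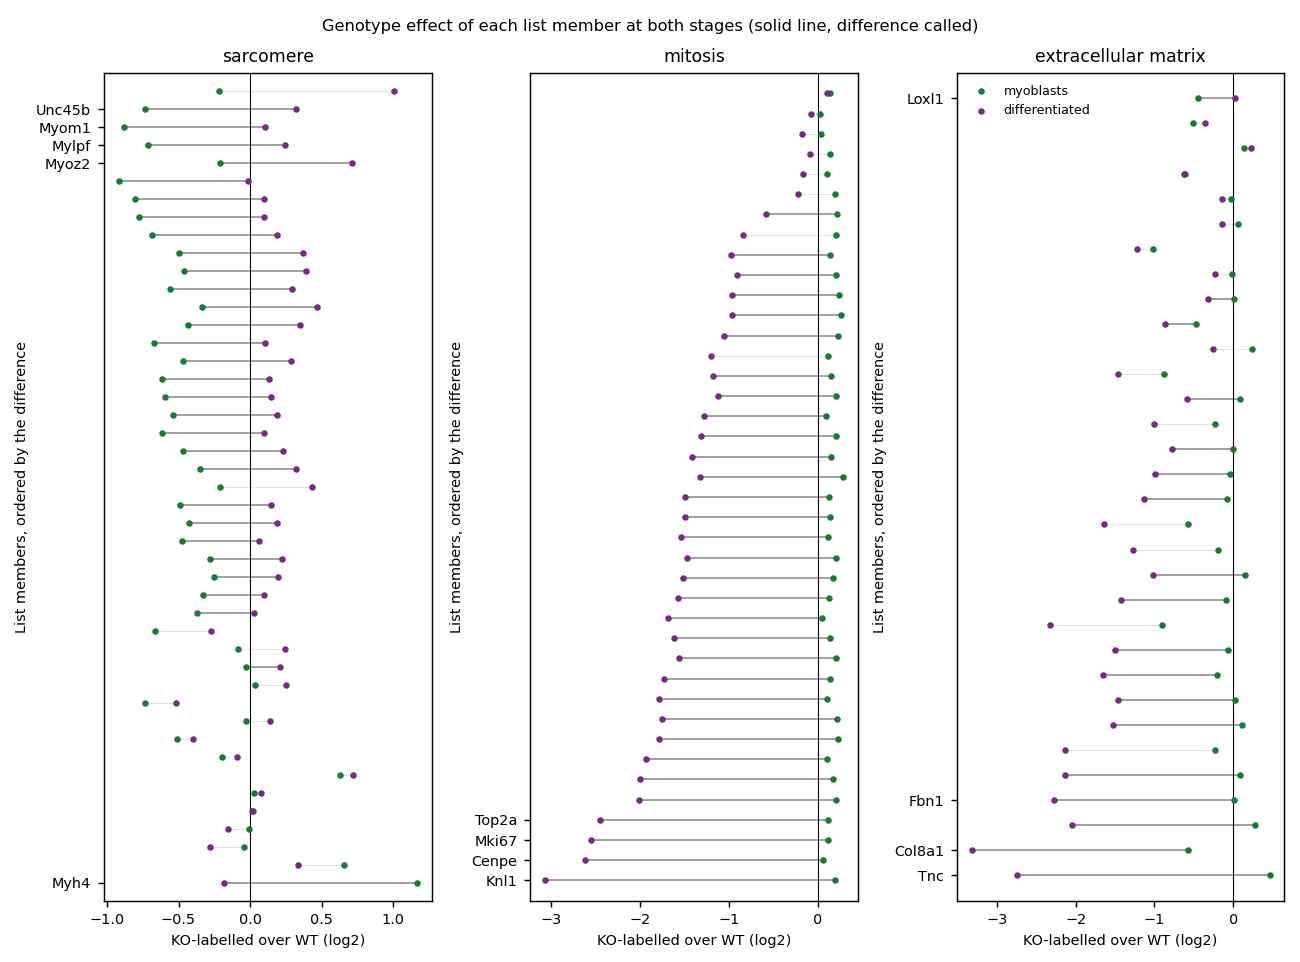
Genotype effect (log2 KO-labelled over WT) of each tested member of the sarcomere, mitosis and extracellular matrix lists in myoblasts (green) and differentiated myotubes (purple), joined by a solid line where the difference was called, with names beside some of the genes described in the text. Called sarcomere lines run from negative in green to about 0 or above in purple, except that of Myh4, which runs the other way, while called mitosis lines run from just above 0 in green to negative in purple, and all but 1 of the called matrix lines (Loxl1) run to the left, from green points on either side of 0.

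The list of excitation-contraction coupling held calcium-handling genes, and also genes of the acetylcholine receptor, its junction and other ion channels. Of its 32 genes, 14 changed positively, 2 (Casq1 and Atp2a2) negatively and 16 were not called, against 7.78% positive among all genes, with a median of 0.28. Hrc, a calcium-binding protein of the sarcoplasmic reticulum, was 10.2, 11.1 and 11.4 CPM in WT myoblasts and 5.24, 6.05 and 6.84 CPM in KO-labelled myoblasts. It was 373, 412 and 456 CPM in WT and 491 and 546 CPM in KO-labelled 48 h myotubes, with the labels in the opposite order and no overlap at either stage (change 1.18 ± 0.12, adjusted p = 5.66e-08, edgeR). Trdn (triadin, which anchors calsequestrin to the release channel) changed by 1.03 ± 0.11, Srl (sarcalumenin) by 0.82 ± 0.082 and Atp2a1 (the fast calcium pump SERCA1) by 0.77 ± 0.093, with adjusted p of 2.17e-07, 4.16e-08 and 8.15e-07 in edgeR. Casq1, the fast calsequestrin, ran against its partners. It was 5.1, 4.41 and 5.35 CPM in WT myoblasts and 7.56, 7.36 and 7.4 CPM in KO-labelled myoblasts, higher in every KO-labelled library, and overlapped at 121, 126 and 136 CPM in WT and 119 and 134 CPM in KO-labelled 48 h myotubes (change -0.59 ± 0.11, adjusted p = 0.000428, edgeR). Atp2a2 encodes the slow pump SERCA2. It changed by -0.19 ± 0.063, a call lost in 13 of 20 alternative fits, 7 of which left out a library and gave -0.14 to -0.19. Of the 32 genes, 14 were higher in KO-labelled myotubes, against 11% of all genes. That count was 6 without KO-labelled myotube replicate 2, 8 with effective lengths in the fit, 9 with library-size scaling and 23 with the length and GC trend removed.

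On the glycolysis list 8 of 25 changed positively, 16 were not called and 1 (Pfkfb3, whose call was lost in 11 of 20 alternative fits) negatively, against 7.78% positive and 11.3% negative among all genes, with a median of 0.15, and the positive count was 5 without KO-labelled myotube replicate 2. Pgam2, muscle phosphoglycerate mutase, was 15.1, 14.1 and 17.5 CPM in WT myoblasts and 10.2, 10.4 and 10.8 CPM in KO-labelled myoblasts and then 525, 487 and 528 CPM in WT and 689 and 714 CPM in KO-labelled 48 h myotubes (change 1.03 ± 0.11, adjusted p = 7.35e-08, edgeR). Pygm, muscle glycogen phosphorylase, was 25.1, 24.9 and 27.1 CPM in WT myoblasts and 15.6, 16.6 and 17.4 CPM in KO-labelled myoblasts and then 709, 739.6 and 804 CPM in WT and 852 and 973 CPM in KO-labelled 48 h myotubes (change 0.92 ± 0.094, adjusted p = 5.62e-08, edgeR). For both, the KO-labelled libraries were all the lower ones at 24 h and all the higher ones at 48 h. Pfkm, muscle phosphofructokinase, changed by 0.54 ± 0.069 and Pgm1, a phosphoglucomutase, by 0.48 ± 0.073 (adjusted p = 1.83e-06 and 2.71e-05, edgeR). Of 35 nuclear genes of respiratory complex I, 10 changed positively, none negatively and 25 were not called, against 7.78% positive among all genes, with a median of only 0.12. In myotubes 22 were higher, against 11% of all genes. Ndufb4 had the largest of these changes, 0.40 ± 0.083 (adjusted p = 0.000917, edgeR), from 44.1, 37.7 and 40.7 CPM in WT myoblasts and 38.7, 40.3 and 41.1 CPM in KO-labelled myoblasts to 48.6, 52.3 and 49 CPM in WT and 68.3 and 60.6 CPM in KO-labelled 48 h myotubes. The complex I count depended on the fit: it was 5 with library-size scaling, 5 without KO-labelled myotube replicate 1, and 6 without WT myoblast replicate 1 or 3. The count of higher members in myotubes was 11 without KO-labelled myotube replicate 1, 13 with library-size scaling and 14 with effective lengths in the fit.

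Among the myogenic regulators, 3 of 17 tested changed positively and 7 negatively, against 7.78% and 11.3% of all genes. Myog, encoding myogenin, was 118, 104 and 119 CPM in WT myoblasts and 64.6, 73.5 and 82.5 CPM in KO-labelled myoblasts, every KO-labelled library below every WT library, and overlapped at 2494, 2364 and 2578 CPM in WT and 2334 and 2594 CPM in KO-labelled 48 h myotubes (change 0.62 ± 0.1, adjusted p = 4.9e-05, edgeR). Mef2c, its partner, was 34.9, 31 and 33.5 CPM in WT myoblasts and 23.5, 24.9 and 26.5 CPM in KO-labelled myoblasts and crossed to 1029, 1098 and 1007 CPM in WT and 1412 and 1286 CPM in KO-labelled 48 h myotubes (change 0.78 ± 0.089, adjusted p = 2.98e-07, edgeR). Mef2a was lower in KO-labelled libraries at both stages, by a log2 effect of -0.77 in myoblasts and -0.42 in myotubes, and the difference was 0.35 ± 0.059 (adjusted p = 8.62e-05, edgeR). Among the negative members, Pax7, the satellite cell factor (chr4:139737062-139833528, minus strand, GRCm38), was 98.8, 103 and 105 CPM in WT myoblasts and 103, 105 and 101 CPM in KO-labelled myoblasts, with overlap. It then was 10.2, 10.4 and 11.3 CPM in WT and 5.08 and 6.18 CPM in KO-labelled 48 h myotubes, without overlap (change -0.93 ± 0.15, adjusted p = 4.03e-05, edgeR). Id3, Id2 and Id1 encode proteins that sequester the E-protein partners of MyoD, and changed by -0.54 ± 0.075, -0.41 ± 0.094 and -0.40 ± 0.092, with adjusted p of 7.33e-06, 0.00236 and 0.00229 in edgeR. Myod1 changed by -0.27 ± 0.075 and Myf5 by -0.20 ± 0.072. Without KO-labelled myotube replicate 1 the Myod1 value was -0.24 and not called, and the Myf5 call was lost in 14 of 20 alternative fits. The negative count of the list was 4 without KO-labelled myotube replicate 1.

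On the Notch list, whose pathway holds satellite cells in an undifferentiated state, 5 of 20 tested changed negatively and none positively, against 11.3% negative among all genes. The negative count was 3 without KO-labelled myotube replicate 1 and 3 with effective lengths in the fit. Hes1, the direct transcriptional target, was 30.5, 29.8 and 30.9 CPM in WT myoblasts and 31.9, 29.8 and 30.2 CPM in KO-labelled myoblasts, with overlap. It was 8.73, 7.88 and 8.38 CPM in WT and 4.6 and 4.35 CPM in KO-labelled 48 h myotubes, without overlap (change -0.91 ± 0.11, adjusted p = 1.58e-06, edgeR). Lfng, the glycosyltransferase that tunes ligand choice, changed by -1.33 ± 0.28 (adjusted p = 0.00128, edgeR).

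Of the fusion and adhesion list, 7 of 18 tested changed positively and 3 negatively, against 7.78% and 11.3% of all genes. Mymk, encoding myomaker, which with myomerger fuses myoblast membranes, was 62.7, 57.7 and 64.8 CPM in WT myoblasts and 42.4, 44.3 and 49.4 CPM in KO-labelled myoblasts and then 1660, 1754 and 1828 CPM in WT and 1999 and 2229 CPM in KO-labelled 48 h myotubes, reversing the order of the labels (change 0.72 ± 0.089, adjusted p = 1.1e-06, edgeR). Mymx, encoding myomerger, overlapped in myoblasts and was 71.8, 72 and 69.8 CPM in WT and 119 and 108 CPM in KO-labelled 48 h myotubes (change 0.64 ± 0.18, adjusted p = 0.0122, edgeR). Without KO-labelled myoblast replicate 1 the Mymx value was 0.52 and not called. Tmem182 was 265, 280 and 288 CPM in WT and 397 and 427 CPM in KO-labelled 48 h myotubes after overlapping in myoblasts, and Cav3, the muscle caveolin, was 167, 165 and 174 CPM in WT and 221 and 219 CPM in KO-labelled 48 h myotubes. Their changes were 0.74 ± 0.12 and 0.61 ± 0.11 (adjusted p = 3.2e-05 and 0.000203, edgeR). Kirrel, a cell recognition protein of the immunoglobulin superfamily, went the other way, from overlapping myoblast levels to 16.4, 16.5 and 18.2 CPM in WT and 7.91 and 6.87 CPM in KO-labelled 48 h myotubes (change -1.18 ± 0.096, adjusted p = 1.25e-09, edgeR).

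**Figure D4:**
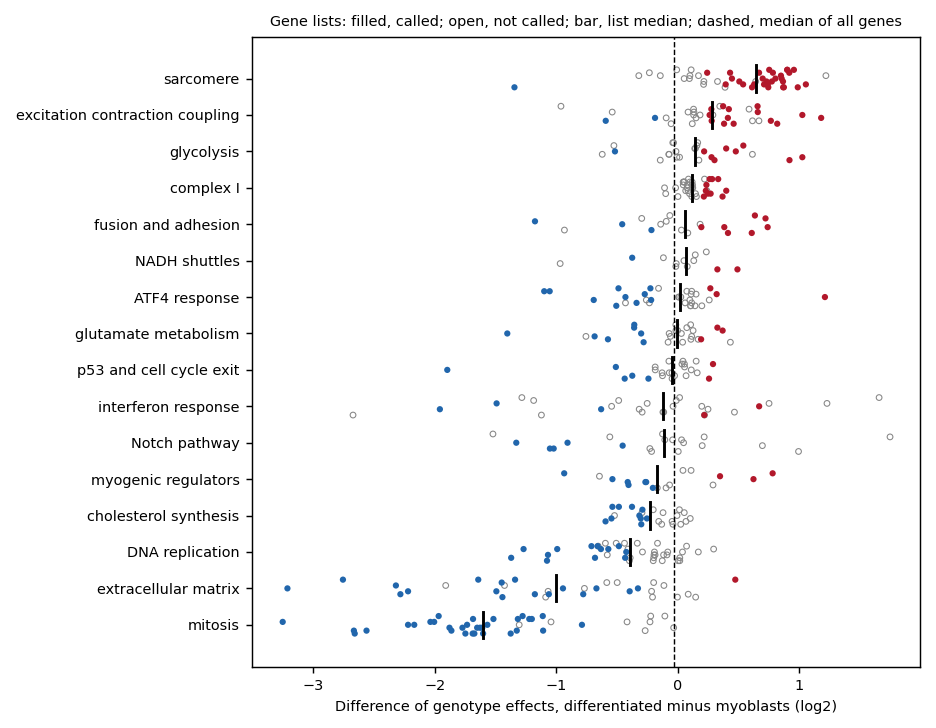
Change in the genotype effect (x axis, log2, differentiated minus myoblasts) for each tested member of 16 gene lists, filled red or blue where called and open where not, with a bar at each list's median and a dashed line at the median of all genes (-0.03). Sarcomere genes lie mostly to the right (median 0.64), mitosis and matrix genes to the left (-1.61 and -1.003), and the metabolic lists close to the dashed line.

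In the metabolism around the targeted enzyme, 3 of 26 tested genes of glutamate metabolism changed positively and 7 negatively, against 7.78% and 11.3% of all genes, with a median of -0.01. With effective lengths in the fit none was called positive and 4 negative, and with the length and GC trend removed 5 were positive. Oat, ornithine aminotransferase, was 90.6, 88 and 89.9 CPM in WT myoblasts and 97.2, 92.5 and 97.5 CPM in KO-labelled myoblasts and then 43.7, 36.3 and 39.1 CPM in WT and 27.1 and 25.7 CPM in KO-labelled 48 h myotubes, higher and then lower in all KO-labelled libraries (change -0.68 ± 0.1, adjusted p = 1.45e-05, edgeR). The branched-chain aminotransferases, which pass amino groups to alpha-ketoglutarate, parted. Cytosolic Bcat1 overlapped in myoblasts and was 6.31, 6.27 and 7.78 CPM in WT and 1.98 and 3.04 CPM in KO-labelled 48 h myotubes (change -1.40 ± 0.19, adjusted p = 5.13e-06, edgeR). Mitochondrial Bcat2 was 39.6, 43.3 and 42.9 CPM in WT and 50.5 and 51.7 CPM in KO-labelled 48 h myotubes, a positive change of 0.37 ± 0.082 whose call was lost with effective lengths in the fit. The same holds for Got1, a cytosolic transaminase of the malate-aspartate shuttle, at 0.33 ± 0.065. The third positive member, Gpt2, a mitochondrial alanine aminotransferase, changed by 0.19 ± 0.061, a call lost in 7 of 20 alternative fits, 4 of which left out a library (WT myoblast replicate 3, KO-labelled myoblast replicate 1 or 2, or KO-labelled myotube replicate 2). Among 12 genes of the NADH shuttles 2 changed positively (Got1 and Mdh1) and 1 (Gpd2) negatively, a called share of 25% against 19.1% of all genes. The positive count was 5 with the length and GC trend removed and 4 in DESeq2. Mdh1 had 0.49 ± 0.14 and Gpd2 -0.37 ± 0.11; with effective lengths neither was called and Gpd2 was 0.02. Without KO-labelled myotube replicate 1 neither was called either, at 0.42 and -0.31, and Gpd2 was -0.27 and not called without WT myotube replicate 3.

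The ATF4 list covers a transcriptional programme of amino acid shortage and mitochondrial stress. Of 32 tested, 3 changed positively, near the 7.78% of all genes, and 10 negatively against 11.3%, with a median change of 0.02. In myoblasts 16 were lower in KO-labelled libraries and none higher, against 6.69% and 4.86% of all genes (median effect -0.16). The lower count was 7 with effective lengths in the fit and 8 without KO-labelled myoblast replicate 3. In myotubes 16 were lower and 2 higher, against 14.1% and 11% of all genes (median -0.28). Higher members there numbered 6 with the length and GC trend removed and none with effective lengths. Pck2, the mitochondrial PEP carboxykinase, was 118, 109.9 and 113 CPM in WT myoblasts and 102, 101 and 99.6 CPM in KO-labelled myoblasts and then 13.1, 11.8 and 13.2 CPM in WT and 6.58 and 7.44 CPM in KO-labelled 48 h myotubes (change -0.69 ± 0.11, adjusted p = 3.36e-05, edgeR). Aldh1l2, of mitochondrial folate metabolism, changed by -0.51 ± 0.08 and the secreted factor Gdf15 by -1.10 ± 0.2 (adjusted p = 3.78e-05 and 0.00026, edgeR). Fgf21, another secreted factor of this programme, moved oppositely, from 1.2, 1.6 and 1.8 CPM in WT myoblasts and 0.716, 1.11 and 0.818 CPM in KO-labelled myoblasts to 16.9, 18.7 and 17.4 CPM in WT and 21.4 and 25.4 CPM in KO-labelled 48 h myotubes (change 1.21 ± 0.24, adjusted p = 0.000692, edgeR). The list had 5 negative calls with effective lengths in the fit, and its positive calls were 6 with the length and GC trend removed and 5 in DESeq2.

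Of 24 genes of cholesterol synthesis, 10 changed negatively, against 11.3% of all genes, and none positively (median -0.23), and 5 negatively with effective lengths in the fit. Sqle, squalene epoxidase, overlapped in myoblasts and was 69.2, 70.9 and 76.3 CPM in WT and 48.5 and 57.7 CPM in KO-labelled 48 h myotubes (change -0.48 ± 0.087, adjusted p = 0.000207, edgeR). On the interferon list the called share, 5 of 26 tested (2 positive and 3 negative), was close to the 19.1% of all genes. Its counts were 2 positive and 1 negative without KO-labelled myotube replicate 1, none and 2 without KO-labelled myotube replicate 2, 1 and 2 without KO-labelled myoblast replicate 1, 3 and 2 without KO-labelled myoblast replicate 3, none and 1 with effective lengths in the fit, 1 and 5 with library-size scaling, and 4 and 3 with the length and GC trend removed. Tap1, the antigen peptide transporter, was its clearest member, lower in KO-labelled libraries at both stages and further apart in myotubes (4.32, 3.44 and 3.45 CPM in WT and 1.02 and 0.681 CPM in KO-labelled 48 h myotubes; change -1.49 ± 0.25, adjusted p = 9.61e-05, edgeR).

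Some genes were low in KO-labelled myoblasts and gained on WT during differentiation. Cgnl1 encodes paracingulin, a junctional adaptor (chr9:71626509-71771602, minus strand, GRCm38). It was 31.8, 31.7 and 32.5 CPM in WT myoblasts and 3.24, 4.51 and 3.27 CPM in KO-labelled myoblasts and then 128, 143 and 138 CPM in WT and 61.3 and 65.6 CPM in KO-labelled 48 h myotubes, without overlap at either stage. The change was 2.02 ± 0.11 (adjusted p = 4.73e-13, edgeR), with effects of -3.13 and -1.11 at the 2 stages and -1.08 in the fused libraries. Fmo1, a flavin monooxygenase, was 17.9, 17.5 and 16.1 CPM in WT myoblasts and 2.87, 2.94 and 1.93 CPM in KO-labelled myoblasts and then 40.3, 37.5 and 38.4 CPM in WT and 31.9 and 35.3 CPM in KO-labelled 48 h myotubes (change 2.52 ± 0.14, adjusted p = 1.68e-12, edgeR). Cyfip2, a subunit of the WAVE actin-nucleation complex, was 7.67, 7.91 and 8.86 CPM in WT myoblasts and 1.72, 1.73 and 1.83 CPM in KO-labelled myoblasts and then 41.5, 37.8 and 40.2 CPM in WT and 36 and 36.2 CPM in KO-labelled 48 h myotubes (change 2.07 ± 0.12, adjusted p = 1.54e-12, edgeR). The myotube effects of Fmo1 and Cyfip2 were smaller than in myoblasts, at -0.20 and -0.14, and not called (adjusted p = 0.0777 and 0.0665, edgeR). For both genes the KO-labelled 48 h libraries still lay below every WT library. In the fused libraries Cyfip2 was lower under the KO label (effect -0.56, adjusted p = 1.48e-12, edgeR), while the Fmo1 effect, -0.13, was not called. Ank1, whose small muscle isoforms anchor the sarcoplasmic reticulum, was 136, 128 and 136 CPM in WT myoblasts and 82.7, 84 and 85.6 CPM in KO-labelled myoblasts and then 525, 515 and 529 CPM in WT and 548 and 579 CPM in KO-labelled 48 h myotubes (change 0.78 ± 0.054, adjusted p = 6.04e-11, edgeR). The Cgnl1 window (RefSeq, GRCm38.p6, chr9:71771553-71771852, minus strand), printed as the leading gene of the positive direction, has a lone E-box in capitals.
Cgnl1: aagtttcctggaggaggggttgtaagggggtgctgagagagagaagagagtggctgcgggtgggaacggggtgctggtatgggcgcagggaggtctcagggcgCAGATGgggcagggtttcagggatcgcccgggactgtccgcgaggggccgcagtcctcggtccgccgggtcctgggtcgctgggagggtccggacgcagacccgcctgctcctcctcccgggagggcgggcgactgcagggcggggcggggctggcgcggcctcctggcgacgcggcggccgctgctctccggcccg

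Other genes crossed from one side of WT to the other. Samd5 had the largest positive change of the genes named here, 3.72 ± 0.28 (adjusted p = 2.11e-10, edgeR). It was 1.62, 1.6 and 1.54 CPM in WT myoblasts and 0.258, 0.196 and 0.164 CPM in KO-labelled myoblasts, then 5.12, 6.71 and 5.81 CPM in WT and 11.6 and 9.38 CPM in KO-labelled 48 h myotubes, so KO-labelled libraries were below all WT libraries at 24 h and above them at 48 h. Pln, phospholamban, which restrains the SERCA pumps, was 1.09, 0.562 and 1.3 CPM in WT myoblasts and 0.602, 0.523 and 0.327 CPM in KO-labelled myoblasts and then 9.34, 11.4 and 9.47 CPM in WT and 15.7 and 15.7 CPM in KO-labelled 48 h myotubes (change 1.69 ± 0.33, adjusted p = 0.000572, edgeR). Dpep1, a membrane dipeptidase, and Traf3ip3 also went from lower to higher, with changes of 1.27 ± 0.15 and 1.49 ± 0.25. In the opposite direction, Avpr1a, a vasopressin receptor, went from 15.4, 16 and 13.8 CPM in WT myoblasts and 20.6, 20.3 and 21.6 CPM in KO-labelled myoblasts to 2.04, 1.92 and 1.94 CPM in WT and 1.07 and 0.839 CPM in KO-labelled 48 h myotubes (change -1.50 ± 0.23, adjusted p = 3.09e-05, edgeR). Ifitm10 changed by -1.66 ± 0.29. The Prl2c genes, prolactin-family members known as proliferins, are near-identical copies whose reads can be exchanged. Prl2c3 was 23.2, 23.6 and 25.2 CPM in WT myoblasts and 47, 41.5 and 44.8 CPM in KO-labelled myoblasts and fell to 2 counts over the KO-labelled myotubes against 21 in WT, a ratio of 5.47 (1.34 to 48.2), and the call was lost with effective lengths in the fit.

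The fused libraries, none of which enters the contrast, give a later view of the same genes. The median genotype effect there was 0.00 for the sarcomere list, -0.08 for mitosis and -0.25 for the matrix list, against -0.01 over all genes, and 13% of all genes were called. Of 40 mitosis genes 1 was higher and none lower, of 45 sarcomere genes 7 were higher and 9 lower, and of 32 matrix genes 8 were higher and 5 lower, against 6.32% higher and 6.72% lower among all genes. Flna was still lower in KO-labelled fused myotubes, at 5.08, 5.67, 4.22 and 5.59 CPM against 11.6, 8.56, 9.19 and 10.8 CPM in WT (log2 effect -1.01, adjusted p = 4.63e-07, edgeR). Thbs1 and Bcat1 were also lower, with effects of -0.60 and -1.53 (adjusted p = 1.26e-06 and 5.02e-06, edgeR). The effects of Fstl1, Tnc, Pax7, Hes1, Mymk and Myog in fused libraries did not pass the test. Low counts limit what could be called at 72 h. Knl1 of the mitosis list had 6 counts in all over the fused libraries of each label, and Fstl1 had 63 in WT and 51 in KO-labelled ones. For genes this low, an effect that was not called does not show equal levels. Whether the genotype effect differed between 48 h and 72 h was not tested here.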

How the data were processed

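The authors deposited an estimated count and a TPM value per transcript for each library, per the file headers, which also give lengths. The submitters' processing notes list bcl2fastq 2.20, fastp 0.20.0, kallisto 0.46.1, edgeR 3.36 and GRCm38.p6, without roles or order. The deposited TPM values keep no depth and entered no test. Of 121843 transcripts, 121018 matched GENCODE M21, and the rest held 0.255% to 0.507% of a library's counts and were left out. Counts were summed over 35598 genes and rounded. All 19 libraries entered 1 edgeR 4.0.16 fit (R 4.3.3) with a coefficient per group, because 1 group has 2 libraries. Genes passed filterByExpr (15123 left), libraries were scaled by TMM, and contrasts used the quasi-likelihood test with Benjamini-Hochberg adjustment, called under 0.05. CPM is edgeR's depth-scaled count after TMM. Standard errors, including the values after ±, are approximate: each is the absolute log2 value divided by the square root of the test's F statistic.

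The members and gene lists were chosen with earlier results of these data known. Named genes follow a rule: the 10 largest changes and 5 smallest adjusted p of each direction, up to 4 called members per list and direction, 4 crossing genes per direction (all with a mean of at least 5 CPM in a group), and Glud1. Some genes that the rule names are not reported here. Within a group every pair of libraries differed by more than counting noise (chi-square per degree of freedom 2.14 to 7.66). Counting intervals and floors cover counting error only. Alternatives were DESeq2 1.42.0, other scaling and filters, effective-length offsets, length and GC correction and a replicate block. Others were the 11 libraries of the contrast alone, and each of those 11 left out in turn. No fused library was left out singly. Windows of 11127 of 15110 gene symbols were found in RefSeq (GRCm38.p6).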

Additional observations from a re-analysis of the deposited data

Results flagged for a closer look

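The effect of the genotype label differed between myoblasts and differentiated myotubes, by a test of the difference itself (edgeR quasi-likelihood, Benjamini-Hochberg), for 2890 genes. The values given here are differences of log2 effects, myotubes minus myoblasts. Among genes with the largest values or smallest adjusted p, the change was positive for Samd5 (3.72), Fmo1 (2.52), Cyfip2 (2.07), Cgnl1 (2.02), Pln (1.69) and Ank1 (0.78). It was negative for Tnc (-3.21), Fstl1 (-2.61), Flna (-2.06), Thbs1 (-1.64) and Iqsec3 (-1.24). Further genes that crossed from one side of WT to the other were Traf3ip3 (1.49), Dpep1 (1.27), Prl2c2 (-2.40), Ifitm10 (-1.66) and Avpr1a (-1.50). The fitted value of Prl2c3, -3.23, rests on 2 counts in KO-labelled myotubes and depends on the prior count, and with that group at the floor of 3 counts it was -2.76. In the fused libraries, Prl2c2 had 1 WT library, at 0.0457 CPM, apart from the other WT ones, which were at 0, and that level is 1 count. The nominal chance rate of such a mark is about 1 in 20 groups, a rate that need not hold for counts this low.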

How the results depend on the processing

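The count of genes whose genotype effect changed was 2890. It was 1452 with effective lengths as an offset and otherwise 2603 to 3340, or 2076 to 2730 with each library left out; without a KO-labelled myotube library, the lone other one is assumed to vary like the other groups. With the offset, the counts of the genotype effect were 587 in myoblasts and 2146 in myotubes. With each library left out they were 925 to 2008 and 2594 to 3778. The share of positive changes was 52.71% with the DESeq2 test, 50.77% when DESeq2 size factors scaled the edgeR fit, 26.31% with library size only, 43.99% with a mean of at least 1 CPM, 43.94% with the offset, 57.13% with the length and GC trend removed, and 38.14% to 43.53% with each library left out. Glud1, not called, was 0.01556 with the length and GC trend removed, and Gpd2 was 0.01725 with the offset. The causes were not tested. Of 118 named called genes, 80 were called in all 20 alternatives and 38 were not in at least 1.

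Same-numbered libraries showed no strong shared deviation: the correlations of their deviations from the group means were -0.05 to 0.04 in 15 pairs, none over 0.1. Between WT myoblasts and WT myotubes the same-numbered pairs were all positive (0.039, 0.025 and 0.036), while between other groups they had both signs. Weak pairing of replicates cannot be judged from values this small. With a replicate block 2812 genes were called. With 2 libraries in KO-labelled myotubes, the myotube effect has a median standard error of 0.096, against 0.073 in myoblasts.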

Other observations

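The estimated split of Glud1 reads between its annotated transcripts differed between the labels although the gene total did not pass the test. The main transcript took 88.0% to 88.8% of the estimated counts of Glud1 in WT myoblasts and 92.2% to 93.5% in KO-labelled myoblasts, and the next one took 11.1% to 11.9% and 5.96% to 6.44%. In myotubes that second share was 7.98% to 12.8% for WT, and 7.18% and 7.34% for the KO-labelled libraries, so the groups were closer there. In fused myotubes it took 11.05% to 13.2% and 4.72% to 6.60%. These are shares assigned by the authors' quantification, and they were not tested.

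Erbb3, a neuregulin receptor that is also on the Schwann cell list, was lower in KO-labelled myoblasts at 15.6, 16.5 and 17.7 CPM against 20.6, 20.3 and 20.9 CPM in WT. It overlapped at 464, 515 and 507 CPM in WT and 512 and 519 CPM in KO-labelled myotubes, and the change was 0.37 ± 0.077 in log2 (adjusted p = 0.001, edgeR quasi-likelihood). Myotubes of both labels held Erbb3 while Sox10, which defines Schwann cells, was at 0.0352 CPM or less in every library of the contrast.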
